A study of Homo sapiens with 6 samples.

Results

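Matrix metalloproteinases (MMPs) and the tissue inhibitors of metalloproteinases (TIMPs) were examined in SK-N-AS cells after knockdown of Prp19, a pre-mRNA splicing factor encoded by *PRPF19*. The set was chosen by name, with earlier results of these data known. It held 10 of the 58735 genes listed in each library: *MMP2*, *MMP9*, *MMP14*, *MMP15*, *MMP16*, *MMP17*, *MMP24*, *TIMP1*, *TIMP2* and *TIMP3*. Of these, 9 had a mean of at least 1 FPKM (fragments per kilobase, relative to library size) over the 6 libraries and were tested together with all 13718 genes above that limit. *MMP24* was below it.

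SK-N-AS is an established human neuroblastoma cell line, and all libraries came from this 1 line, grown in MEM/F12 medium with serum. Both groups were transfected with a small interfering RNA (siRNA), directed at Prp19 in the siPrp19 group and a negative control sequence in the NC group. The labels give 72 h for the transfection, whereas a shorter time stands in the study's methods. Each group had 3 libraries, which the study calls biological replicates. No label states that they came from separate cultures, so p-values measure only the spread between these libraries, which may be technical. The study followed MMP9 protein as a molecule linked to the epithelial-mesenchymal transition, and the question here was how the mRNA of MMPs and TIMPs differed between the groups.

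Libraries are named by the header of their value column, NCa, NCb and NCc, and siPrp19a, siPrp19b and siPrp19c. In 4 of 6 files that header was the description of a sample other than the recorded one, and in 2 of them, NCb and siPrp19b, the recorded label states the opposite group. *PRPF19*, the siRNA target, was at 83.0, 83.1 and 93.0 FPKM in NCa, NCb and NCc and at 19.6, 19.1 and 18.5 FPKM in siPrp19a, siPrp19b and siPrp19c. Its level thus followed the column names and went against the recorded labels of NCb and siPrp19b. The comparison by column name is given first, beside 4 libraries whose label and column name agree (NCa, NCc, siPrp19a and siPrp19c) and all 6 libraries grouped as recorded. By column name, *PRPF19* had a log2 fold change of -2.12 (adjusted p = 0.000215, limma), against -2.15 in the 4 libraries (adjusted p = 0.0266, limma). Grouped as recorded, its log2 fold change was -0.74 (adjusted p = 1.00, limma).

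The libraries held 14887132 to 19977811 reads, recovered from the FPKM values. The difference between 2 libraries, as chi-square per degree of freedom, was 1.74 for NCa and NCb and 2.82 for siPrp19b and siPrp19c, and 21.0 to 55.2 for the 13 other pairs. Among those 13, pairs within a group were at 21.3 to 25.5 and pairs across groups at 21.0 to 55.2, so these ranges overlapped. NCa and NCb were each nearer to siPrp19b (21.1 and 21.0) than to NCc (23.0 and 23.5). NCc and siPrp19a were each nearest to libraries of their own group. In each group, 2 libraries were thus much more alike than either was to the remaining one. If such a close pair is not 2 independent cultures, the sample sizes below overstate the replication. The SD, SE and p-values would then be too small, and no label settles this. Mitochondrial genes took 8.29% of reads in siPrp19a and 5.15% to 5.49% in the others. Adrenergic neuroblastoma markers were at or above 1 FPKM in every library for 6 of 7 genes (*TH* was below), and mesenchymal neuroblastoma markers for 6 of 6. The summed level was 299 to 316 FPKM in NC and 235 to 246 FPKM in siPrp19 for the adrenergic list, and 237 to 273 FPKM against 183 to 210 FPKM for the mesenchymal list. The markers of endothelial, epithelial and Schwann cells, 3 genes each, were below 1 FPKM throughout, as were the leukocyte markers *CD14*, *CD68* and *LYZ*. The summed leukocyte list was at 25.6 to 31.1 FPKM in NC and 17.2 to 21.0 FPKM in siPrp19, nearly all of it *PTPRC*, at 24.9 to 30.7 and 16.9 to 20.4 FPKM (adjusted p = 0.0202, limma). The part of these differences in the results below was not tested.

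MMPs are zinc-dependent proteases that cut collagens, laminins, fibronectin and other matrix and surface proteins, and most are made as inactive precursors. MMP2 and MMP9 are the secreted gelatinases, whereas MMP14, MMP15, MMP16 and MMP24 span the plasma membrane and MMP17 is held there by a lipid anchor. TIMPs bind the active site of MMPs, and TIMP2 has a further role, since it links proMMP2 to MMP14 for activation at the cell surface. In neuroblastoma, as in other solid tumors, these proteases are studied for their part in invasion and metastasis.

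The catalytic site joins the family, so its coding sequence is shown for 6 of the 7 MMPs, read from GRCh38 through the principal GENCODE 29 transcript of each gene. Capitals mark the codons of the 3 histidines that hold the zinc ion.
MMP2 (chr16:55491827-55491859, plus strand, exon 8): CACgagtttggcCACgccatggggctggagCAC
MMP9 (chr20:46012453-46012485, plus strand, exon 8): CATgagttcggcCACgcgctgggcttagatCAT
MMP14 (chr14:22843283-22843315, plus strand, exon 5): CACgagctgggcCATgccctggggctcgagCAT
MMP15 (chr16:58040563-58040595, plus strand, exon 5): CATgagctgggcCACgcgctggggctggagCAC
MMP17 (chr12:131841659-131841691, plus strand, exon 5): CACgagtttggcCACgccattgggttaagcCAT
MMP24 (chr20:35263817-35263849, plus strand, exon 5): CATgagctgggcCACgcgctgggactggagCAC
Over these 33 bases, the 15 pairs of genes shared from 20 bases (*MMP17* and *MMP24*) to 32 bases (*MMP15* and *MMP24*). *MMP15* shared 28 with *MMP14* and also 28 with *MMP2*, and the gelatinases *MMP2* and *MMP9* shared 24.

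Membrane-type MMPs are cut inside the cell by furin-like convertases before they reach the surface. The sites were searched as the amino acids R, any, K, R, translated from the first 200 codons of the same transcripts. A site was found in *MMP14*, *MMP15*, *MMP16* and *MMP24* and none with these letters in *MMP2*, *MMP9* or *MMP17*. Only this pattern was searched, so the result does not show that *MMP17* lacks a convertase site. The coding bases are shown for 3 genes with 9 bases on either side, and capitals mark the 4 codons of the site.
MMP14 (chr14:22841968-22841997, plus strand, exon 3): gccaatgttCGAAGGAAGCGCtacgccatc
MMP15 (chr16:58038327-58038356, plus strand, exon 3): ctgcggcggCGTCGGAAGCGCtacgccctc
MMP24 (chr20:35251954-35251983, plus strand, exon 3): cgtaggcggAGAAACAAGCGCtatgccctg

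The gelatinases were lower in siPrp19. *MMP9* (ENSG00000100985, chromosome 20, 46008908 to 46016561) was at 11.9, 12.3 and 14.3 FPKM in NCa, NCb and NCc and at 6.96, 7.60 and 7.62 FPKM in siPrp19a, siPrp19b and siPrp19c. Every NC library lay above every siPrp19 library, and the highest NC library, NCc, was the farthest from the knockdown group. The mean was 12.8 ± 1.30 FPKM (SD, n = 3) in NC and 7.40 ± 0.374 FPKM (SD, n = 3) in siPrp19, a change of -42.4%. On the log2(FPKM + 1) scale, which is used for all fold changes by limma below, the difference was -0.72 ± 0.086 (SE, adjusted p = 0.00658 over all tested genes). Depth was moderate, at 257 to 576 reads per library. An antisense gene, *SLC12A5-AS1*, covers 18.4% of the exonic bases of *MMP9*, and it was at 0.243 FPKM or less. The difference was of like size in the 4 libraries, at -0.76, but did not pass the threshold there (adjusted p = 0.130, limma), and it was -0.30 as recorded (adjusted p = 1.00, limma).

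*MMP2* (ENSG00000087245, chromosome 16, 55389700 to 55506691) had the highest level of the set. It was at 424, 415 and 412 FPKM in NCa, NCb and NCc and at 289, 282 and 266 FPKM in siPrp19a, siPrp19b and siPrp19c, from 22534 to 34952 reads. The groups were far apart compared with the spread within them, and the 2 libraries with contradictory labels each sat between the other libraries of the group their column names state. The mean fell from 417 ± 6.44 to 279 ± 11.6 FPKM (SD, n = 3 each), a change of -33.1%. This was -0.58 ± 0.087 (SE) as a log2 fold change (adjusted p = 0.0126, limma). It was -0.59 in the 4 libraries (adjusted p = 0.299, limma) and -0.21 as recorded (adjusted p = 1.00, limma). The call was lost without NCa, NCb, siPrp19b or siPrp19c (adjusted p from 0.0651 to 0.0818, limma), without the filter on low values (0.0729) and under quantile normalization (0.0602).

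The membrane-type MMPs went in different directions. *MMP14* (ENSG00000157227, chromosome 14, 22836557 to 22849027), which cuts collagen at the cell surface and activates proMMP2, was at 50.4, 50.02 and 53.4 FPKM in NCa, NCb and NCc and at 36.2, 40.4 and 39.5 FPKM in siPrp19a, siPrp19b and siPrp19c. The groups did not overlap, and siPrp19a was lowest. The mean was 51.3 ± 1.85 FPKM in NC and 38.7 ± 2.17 FPKM in siPrp19 (SD, n = 3 each), a change of -24.5%. Its log2 fold change was -0.40 ± 0.073 (SE, adjusted p = 0.0220, limma). It was -0.44 in the 4 libraries (adjusted p = 0.276, limma) and -0.20 as recorded (adjusted p = 1.00, limma). The call was lost without NCa, NCb, siPrp19b or siPrp19c (adjusted p from 0.0800 to 0.0950, limma) and when libraries were rescaled to the same sum (0.0764).

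*MMP15* (ENSG00000102996, chromosome 16, 58025566 to 58046901), which encodes a transmembrane protease like MMP14, rose. It was at 1.63, 2.07 and 2.04 FPKM in NCa, NCb and NCc and at 3.47, 4.17 and 4.28 FPKM in siPrp19a, siPrp19b and siPrp19c. All siPrp19 libraries were above all NC libraries, with siPrp19a the nearest to them. The mean was 1.91 ± 0.247 FPKM in NC and 3.97 ± 0.440 FPKM in siPrp19 (SD, n = 3 each), a 2.08-fold difference from 114 to 397 reads. As a log2 fold change this was 0.77 ± 0.11 (SE, adjusted p = 0.00963, limma). A pseudocount of 1 FPKM compresses changes at this level, and voom, a limma model for read counts, gave 1.14 on the recovered reads (adjusted p = 0.00219). In the 4 libraries the log2 fold change was 0.78 (adjusted p = 0.147, limma), and as recorded it was 0.27 (adjusted p = 1.00, limma). The call was lost without siPrp19b (adjusted p = 0.0541, limma) or siPrp19c (0.0532).

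No call was made for *MMP16* or *MMP17*, whose groups overlapped. *MMP16* (ENSG00000156103, chromosome 8, minus strand), a further transmembrane MMP, was at 3.77, 3.76 and 2.54 FPKM in NCa, NCb and NCc and at 4.72, 4.23 and 3.76 FPKM in siPrp19a, siPrp19b and siPrp19c. The lowest siPrp19 library was level with NCa and NCb, and NCc stood below the rest. The log2 fold change was 0.27, its 95% interval included 0, and it did not pass (adjusted p = 0.288, limma). It was 0.13 without NCc and 0.43 with voom, and passed in neither (adjusted p = 0.448 and 0.123). *MMP17* (ENSG00000198598, chromosome 12, 131828393 to 131851783) was at 5.73, 5.30 and 7.81 FPKM in NCa, NCb and NCc and at 7.35, 8.57 and 8.57 FPKM in siPrp19a, siPrp19b and siPrp19c. NCc lay above siPrp19a, so the groups overlapped through 1 library. The log2 fold change was 0.34 (adjusted p = 0.182, limma), 0.49 without NCc (adjusted p = 0.0284, limma) and -0.06 as recorded (adjusted p = 1.00, limma). By column name, the 95% interval of *MMP17*, not adjusted for the number of genes, was 0.0245 to 0.664 and left out 0.

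*MMP24* (ENSG00000125966, chromosome 20, 35226654 to 35277000), a transmembrane MMP best known from the nervous system, was at 0.587, 0.430 and 0.527 FPKM in NCa, NCb and NCc and at 0.588, 0.933 and 0.712 FPKM in siPrp19a, siPrp19b and siPrp19c. These values came from 28 to 68 reads. NCa and siPrp19a were practically level, so the groups were separate by the narrowest margin. Genes on the opposite strand share exonic bases with *MMP24*, among them *MMP24OS* (18.1% of its exonic bases), which was at 1.78 to 2.34 FPKM. Strandedness of the counting was not stated, so reads of such pairs cannot be told apart.

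**Figure D1:**
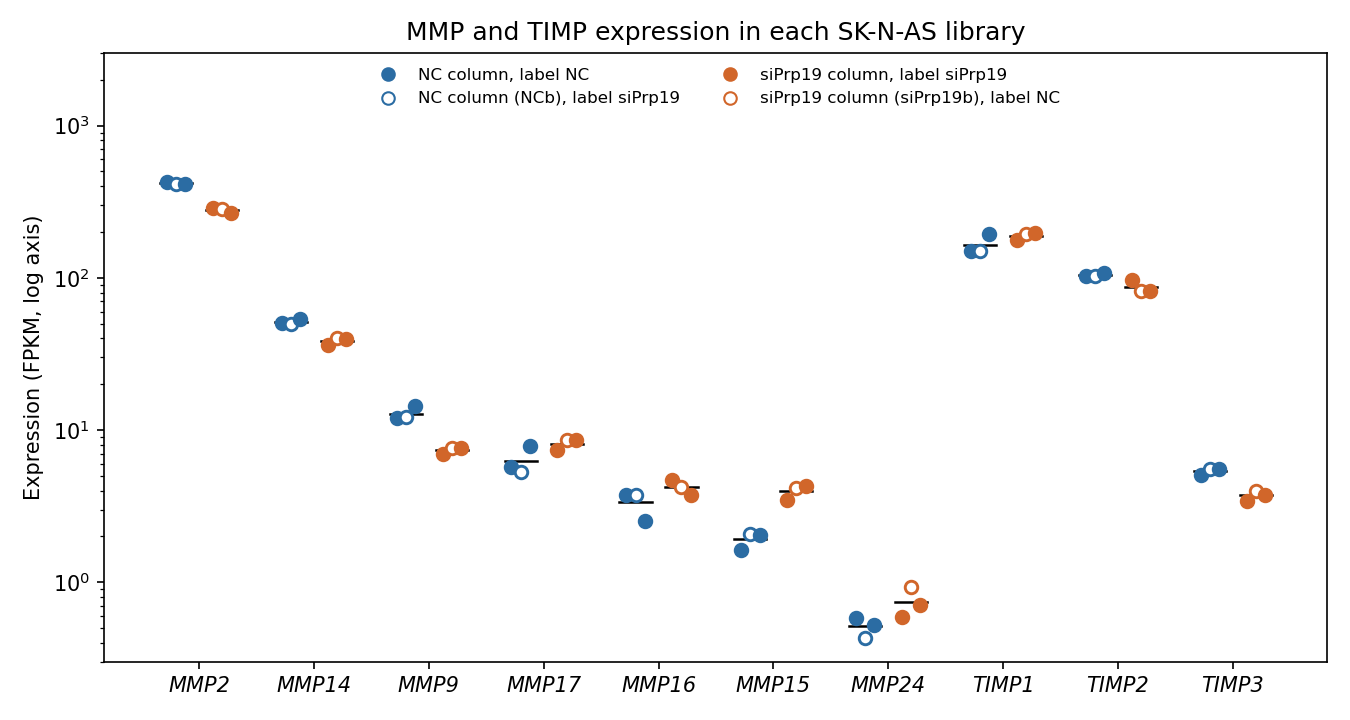
Expression of the 7 MMPs and 3 TIMPs in each library, in FPKM on a log axis, with NC libraries in blue and siPrp19 libraries in orange by column name, open circles for the 2 libraries whose recorded label states the opposite group, and a line at each group mean. *MMP2* at 266 to 424 FPKM stands above the other MMPs, the open circles sit with the group of their column name for *MMP2*, *MMP9*, *MMP14*, *MMP15* and *TIMP3*, and groups overlap for *MMP16*, *MMP17* and *TIMP1*.

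Among the inhibitors, *TIMP3* fell, and no call was made for *TIMP1* or *TIMP2*. *TIMP3* (ENSG00000100234, chromosome 22, 32801701 to 32863043), the TIMP that stays bound to the extracellular matrix and also blocks several ADAM proteases, was at 5.05, 5.55 and 5.54 FPKM in NCa, NCb and NCc and at 3.42, 3.98 and 3.76 FPKM in siPrp19a, siPrp19b and siPrp19c. No siPrp19 library reached the NC range. The mean fell from 5.38 ± 0.289 to 3.72 ± 0.277 FPKM (SD, n = 3 each), a change of -30.9%, from 249 to 439 reads. Its log2 fold change was -0.44 ± 0.078 (SE, adjusted p = 0.0204, limma). It was -0.46 in the 4 libraries (adjusted p = 0.247, limma) and -0.17 as recorded (adjusted p = 1.00, limma). The call was lost without NCa, NCb, siPrp19b or siPrp19c (adjusted p from 0.0657 to 0.0896, limma), without the filter on low values (0.0590) and on rescaling to the same sum (0.0674).

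*TIMP2* (ENSG00000035862, chromosome 17, 78852977 to 78925387, minus strand) was at 102, 102 and 108 FPKM in NCa, NCb and NCc and at 96.4, 81.9 and 82.4 FPKM in siPrp19a, siPrp19b and siPrp19c. All siPrp19 values were below all NC values, with siPrp19a close to the NC range. The difference of -0.26 ± 0.089 (SE) on the log2 scale did not pass (adjusted p = 0.133, limma), except without siPrp19a (0.0440). Under quantile normalization the difference was -0.09 (adjusted p = 0.672, limma). *TIMP1* (ENSG00000102265, chromosome X, 47582313 to 47586789), a secreted inhibitor that also binds proMMP9, was at 150, 150 and 195 FPKM in NCa, NCb and NCc and at 178, 193 and 198 FPKM in siPrp19a, siPrp19b and siPrp19c. NCc lay inside the siPrp19 range and apart from NCa and NCb. Its log2 fold change was 0.21 (adjusted p = 0.365, limma), and the adjusted p-value was 0.0387 without NCc and 0.0207 under quantile normalization. As recorded, the sign of *TIMP1* turned, at -0.03.

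By column name, 5 of the 9 tested genes passed an adjusted p-value of 0.05, against 7.94% of all tested genes. The count was 2 of 9 without NCa or without NCb, 1 of 9 (*MMP9*) without siPrp19b or without siPrp19c, 7 of 9 without NCc and 6 of 9 without siPrp19a. It was 3 of 9 without the filter on low values and 3 of 9 after rescaling to the same sum. Of the 5, 4 were lower (5.37% of all tested genes were called lower) and 1 was higher (2.57% were called higher). The groups did not overlap for 5 of 9 in the lower direction and 1 of 9 in the higher direction, where the shares over all tested genes were 18.1% and 13.2%. The members were chosen with earlier results of these data known, so counts set beside these shares describe the set and do not test it. The median log2 fold change of the 9 genes was -0.26, and that of all tested genes was -0.02. By two-sided exact permutation, p was 0.1, the smallest that 3 against 3 libraries allow, for *MMP2*, *MMP9*, *MMP14*, *MMP15*, *MMP24*, *TIMP2* and *TIMP3*, 0.2 for *MMP17*, and 0.3 for *MMP16* and *TIMP1*. In the 4 libraries, 0 of 9 passed by limma, where 0.0146% of all tested genes passed (2 genes, with 1685 at an unadjusted p-value under 0.05), and the median of the 9 was -0.23. With voom on the recovered reads of the 4 libraries, *MMP9* (adjusted p = 0.0442) and *MMP15* (adjusted p = 0.0160) passed. Grouped as recorded, 0 of 9 genes and 0% of all tested genes passed by limma and by voom, and 191 genes were at an unadjusted p-value under 0.05 by limma.

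**Figure D2:**
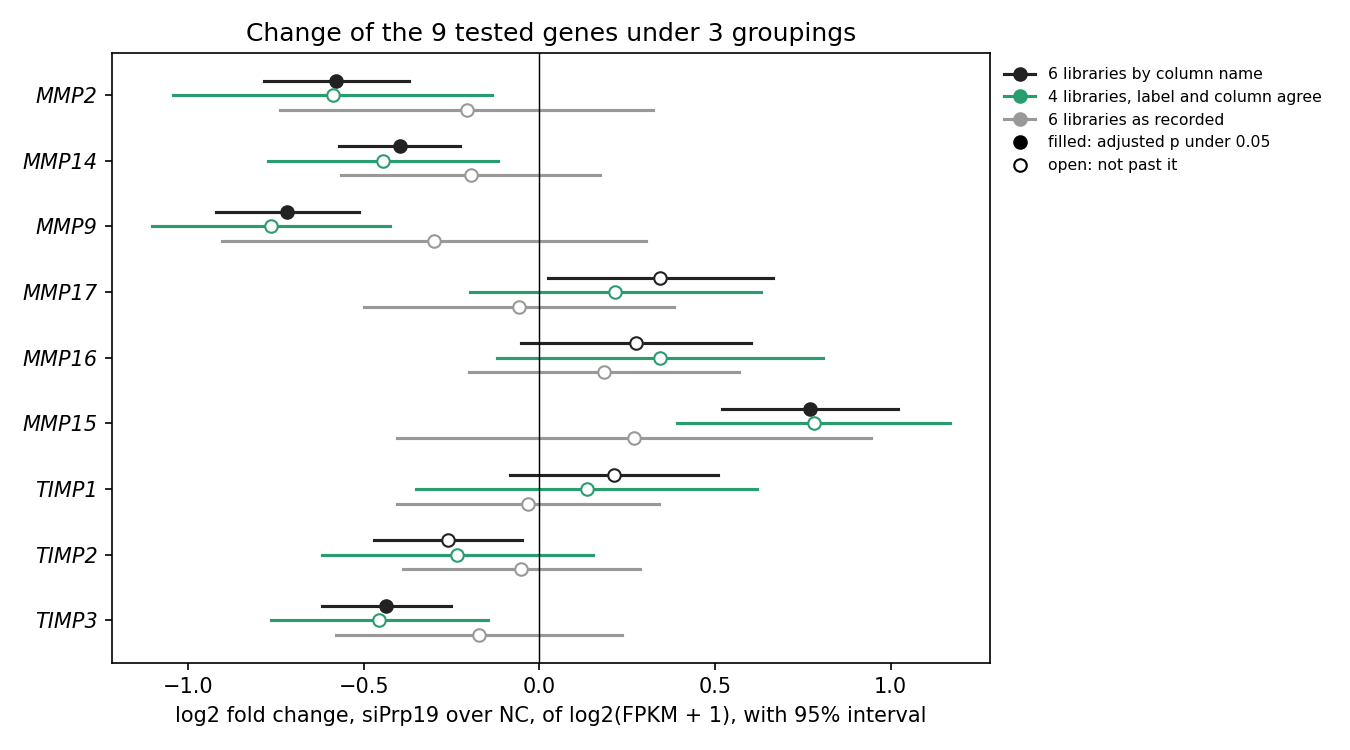
Difference between siPrp19 and NC for the 9 tested genes on the log2(FPKM + 1) scale, as points with 95% intervals from limma, for 6 libraries by column name (black), the 4 libraries whose label and column name agree (green) and 6 libraries as recorded (grey), where filled points passed an adjusted p-value of 0.05. Black and green points lie close together, for example -0.72 and -0.76 for *MMP9*, with wider intervals for the 4 libraries, and the grey intervals all include 0.

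Levels were compared per length, in FPKM. In NC the order of the group means was *MMP2*, *TIMP1*, *TIMP2*, *MMP14*, *MMP9*, *MMP17*, *TIMP3*, *MMP16*, *MMP15* and *MMP24*, and the ranges overlapped only between the neighbours *MMP17* and *TIMP3*. In siPrp19, *MMP17* came level with *MMP9*, and *MMP16*, *MMP15* and *TIMP3* could not be separated by their ranges, while *MMP2* stayed first and *MMP24* last. The summed level of the 7 MMPs was 493 ± 4.88 FPKM in NC and 342 ± 9.90 FPKM in siPrp19 (SD, n = 3 each), and *MMP2* made up 84.5% and 81.5% of it. The summed level of the 3 TIMPs was 274 ± 29.7 and 280 ± 3.17 FPKM (SD, n = 3 each), and the groups overlapped (two-sided exact permutation p = 1).

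Ratios within a library do not depend on the scaling of that library. They were chosen after the values above were seen, so they describe those values in another form. *MMP2* over its partner *TIMP2* was 4.15, 4.06 and 3.82 in NCa, NCb and NCc and 3.00, 3.44 and 3.23 in siPrp19a, siPrp19b and siPrp19c. *MMP9* over *TIMP1* was 0.0784 ± 0.00444 in NC and 0.0390 ± 0.000393 in siPrp19 (SD, n = 3 each), and *MMP15* over *MMP14* was 0.0373 ± 0.00462 and 0.102 ± 0.00632. None of these 3 ratios overlapped between the groups. *MMP14* over *TIMP2*, the pair that handles proMMP2 at the surface, was 0.493, 0.490 and 0.495 in NCa, NCb and NCc and 0.376, 0.493 and 0.480 in siPrp19a, siPrp19b and siPrp19c. Here siPrp19b lay within the NC range and siPrp19a alone was far below it, so the groups overlapped.

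**Figure D3:**
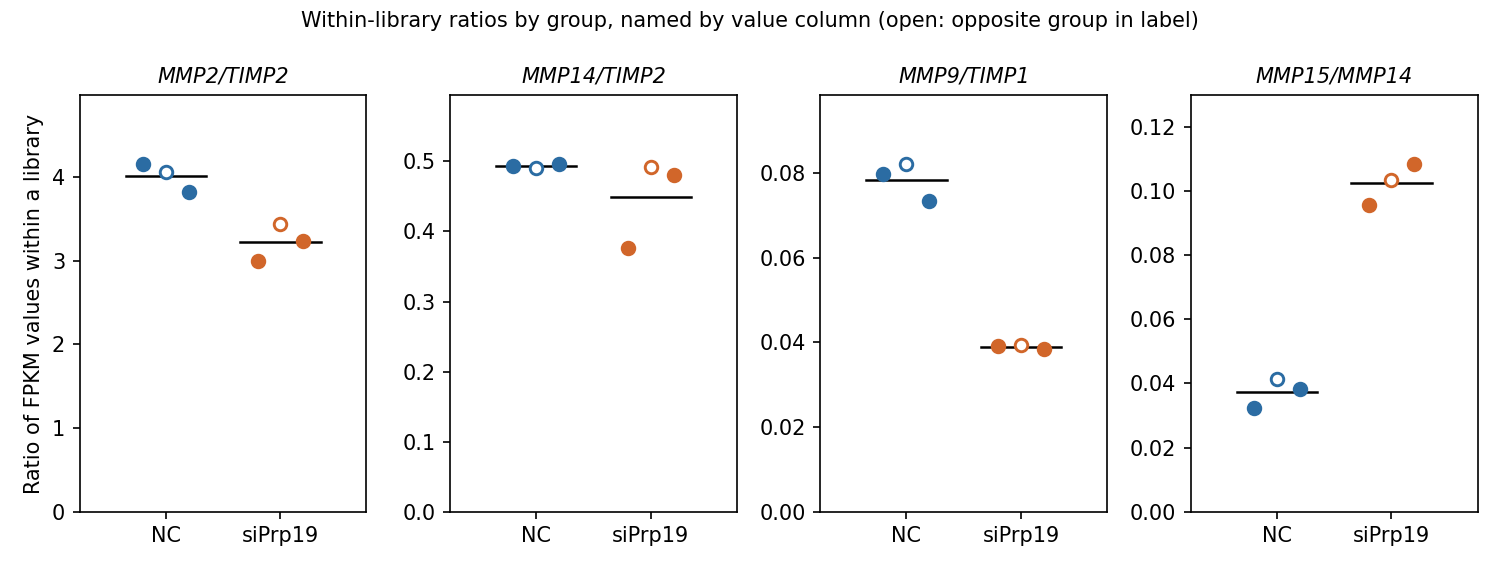
Ratio of FPKM values within each library for 4 pairs of genes, on linear axes from 0, with NC in blue and siPrp19 in orange by column name, open circles for the 2 libraries with the opposite recorded label, and a line at the group mean. *MMP9* over *TIMP1* has a mean of 0.0784 in NC and 0.0390 in siPrp19, and *MMP14* over *TIMP2* overlaps between the groups, with siPrp19a lowest at 0.376.

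The genes around the MMPs were then counted by list, and these lists were also chosen with earlier results of these data known. Of 17 other genes, 16 MMPs and *TIMP4*, 15 were below the limit of 1 FPKM and 2 were tested, *MMP1*, an interstitial collagenase, at a mean of 4.33 FPKM and *MMP11* at 1.30 FPKM. Neither passed (0 of 2), where 7.94% of all tested genes did. Among 13 activators, surface regulators and protease inhibitors, 9 were tested, 1 rose and 1 fell, where 2.57% and 5.37% of all tested genes were called in these directions. *FURIN*, the convertase that cuts the sites shown above, was at 17.2, 18.0 and 17.7 FPKM in NCa, NCb and NCc and at 29.04, 31.4 and 30.6 FPKM in siPrp19a, siPrp19b and siPrp19c. The groups were well separated, and *FURIN* was 0.75 ± 0.064 (SE) higher on the log2 scale (adjusted p = 0.00244, limma). *PLAU*, which encodes urokinase, the protease that turns plasminogen into plasmin, was at 14.8, 13.01 and 15.98 FPKM in NCa, NCb and NCc and at 5.64, 5.50 and 5.63 FPKM in siPrp19a, siPrp19b and siPrp19c. It had a log2 fold change of -1.24 ± 0.084 (SE), larger in size than that of any tested MMP or TIMP (adjusted p = 0.00182, limma). The inhibitor *TFPI2* was at 161 ± 14.5 and 127 ± 5.58 FPKM (SD, n = 3 each) and did not pass (adjusted p = 0.0804, limma). In the 4 libraries the log2 fold changes were 0.74 for *FURIN* and -1.30 for *PLAU*, and neither passed (adjusted p = 0.120 and 0.0747, limma).

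The related ADAM and ADAMTS metalloproteinases, which shed surface proteins or cut proteoglycans, had 0 calls among 11 tested genes of 13, a number too small to set apart from the 7.94% over all tested genes. The highest of them were *ADAMTS9*, at 85.0 ± 13.2 FPKM in NC and 83.4 ± 5.45 FPKM in siPrp19, and *ADAM9*, at 37.0 ± 3.09 and 36.2 ± 2.72 FPKM (SD, n = 3 each). Of 9 matrix substrates, 7 were tested and 0 passed, which is likewise close to that share. *COL3A1*, a fibrillar collagen chain, was at 494 ± 25.5 FPKM in NC and 402 ± 27.0 FPKM in siPrp19 (SD, n = 3 each, adjusted p = 0.134, limma), while *COL1A1* was at 389 ± 19.2 and 375 ± 23.8 FPKM (adjusted p = 0.805). The median log2 fold change was 0.20 for the tested activators, regulators and inhibitors, 0.002 for ADAM and ADAMTS genes and -0.06 for matrix substrates.

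**Figure D4:**
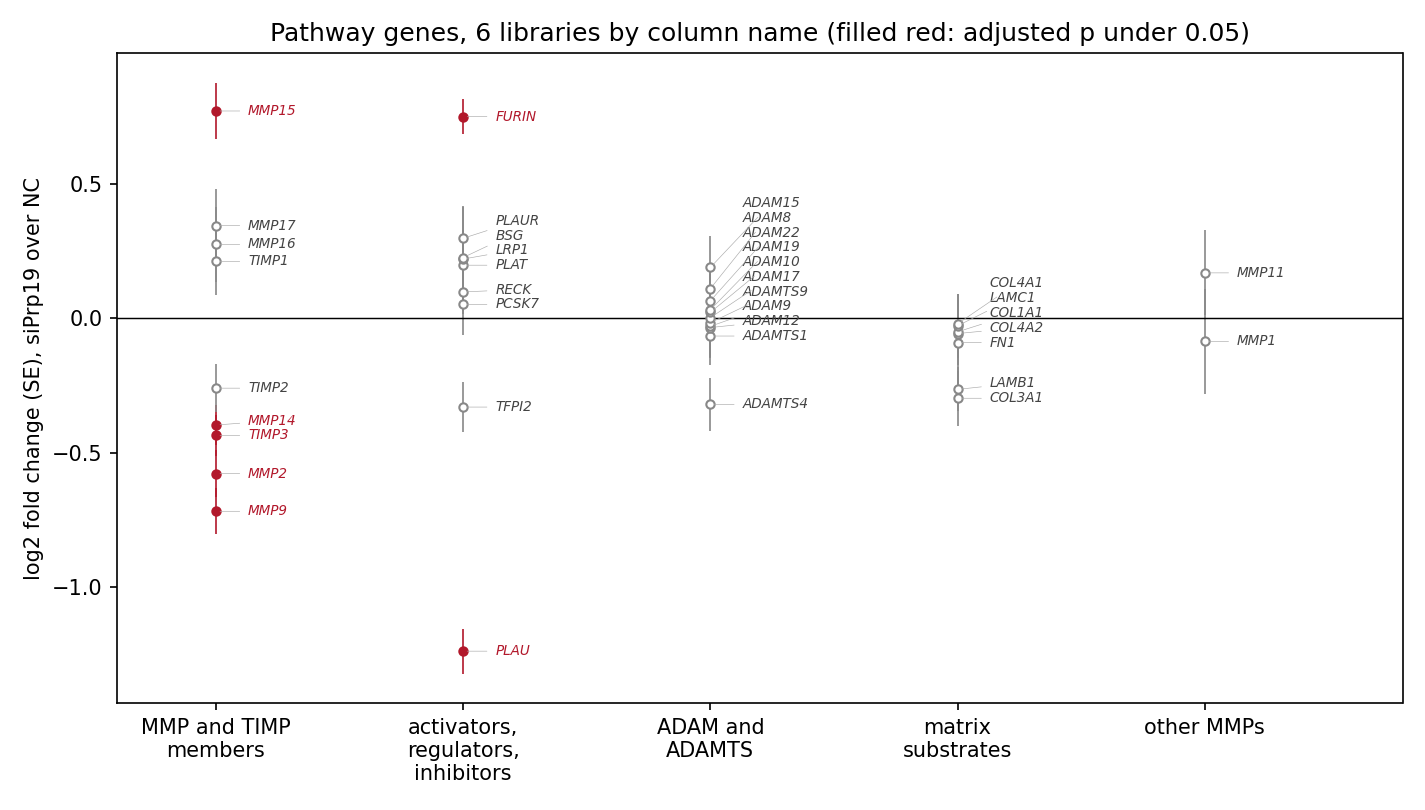
Difference between siPrp19 and NC (log2 scale, bars show SE) for each tested gene of the MMP and TIMP set and of 4 related lists, 6 libraries by column name, with filled red points for an adjusted p-value under 0.05 and open grey points otherwise. *PLAU* at -1.24 is the lowest point, *MMP15* at 0.77 and *FURIN* at 0.75 are the highest, and no gene of the ADAM, matrix substrate or other MMP lists is red.

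Genes with the most similar pattern over the 6 libraries were listed for *MMP9* and *MMP2*, as a description. For *MMP9* they were *EIF1AX*, *ZNF121* and *SKA1*, with Pearson r from 0.998 to 1.00 on the log2 scale, and 446 tested genes were above 0.95. For *MMP2* they were *TNPO3*, *SFRP1* and *CSTF2*, with r of 0.998 each, and 541 genes were above 0.95. The 6 points fall into the groups by column name, so many genes reach such values.

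Promoter windows from RefSeq (GRCh38.p14, 250 bases before to 50 after the start) were found for 5 members, *MMP14*, *MMP15*, *MMP24*, *TIMP1* and *TIMP3*. TGANTCA, the letters of an AP-1 motif, and GGAATG, those of a TEAD motif, were searched on both strands. Neither occurred in any of the 5 windows, where 7.71% and 14.03% of 35116 promoters held them. With so few windows, finding none cannot be set apart from these shares. Over the 250 upstream bases, GC content was 56.8% in *MMP14* and 72.4% in *TIMP3*, which both fell, 74.8% in *MMP15*, which rose, and 64.8% and 77.6% in *TIMP1* and *MMP24*. These bases held 7, 26, 31, 12 and 25 CpG dinucleotides in the same order, where the medians over all promoters were 58% and 11.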

How the data were processed

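RNA from NC and siPrp19 SK-N-AS cells (3 µg per library, NEBNext Ultra kit) was sequenced, and the authors deposited 1 table of FPKM values per library. The submitters' processing notes name HISAT2 2.0.5, featureCounts 1.5.0-p3 and hg38. The study tested counts with DESeq2, a count model that was not used here since the files hold FPKM.

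All 58735 gene IDs were found in GENCODE 29. Current symbols were matched for 58207 IDs, and 528 took the GENCODE 29 symbol. FPKM times exon length was a whole multiple of 1 constant (within 0.02 reads, checked up to 1000 reads) for 100% of values, which gave the reads. Library sizes implied by the deposited FPKM were 0.963 to 0.991 times the recovered totals in NC and 1.01 to 1.05 times in siPrp19 by column name. This scaling thus follows the groups and lowers siPrp19 values against NC by a few percent. Voom used the reads without it, and the 5 calls made on FPKM also passed there. Rescaling to the same sum also takes out a factor common to a library, and there *MMP14* (adjusted p = 0.0764, limma) and *TIMP3* (0.0674) did not pass. Under quantile normalization *MMP2* did not pass (adjusted p = 0.0602, limma). The part of this scaling in the calls was not tested. Intervals and p-values do not cover PCR duplication.

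Columns were assigned to samples by their names. Genes with a mean of at least 1 FPKM were tested as log2(FPKM + 1) with limma 3.58.1 in R 4.3.3 (mean-variance trend, Benjamini-Hochberg over all tested genes, threshold 0.05), and single genes also with exact permutation tests. Named genes were the 10 members, *PRPF19*, at most 4 genes per list by level or by passing the threshold, and 3 most similar genes for each of *MMP9* and *MMP2*. Overlapping genes and single cell markers were named beside these after their values were seen. Lists were other MMPs and TIMP4, activators with regulators and inhibitors, ADAM and ADAMTS, matrix substrates, and cell markers, and 1 gene of the activator list is not reported here. Members and lists were chosen with earlier results of these data known. The alternatives were another pseudocount (0.1), no filter, quantile normalization, rescaling to the same sum, no trend, replicate block, voom on recovered reads, and leaving out each library. Tested on simulated data with 200 genes changed 3-fold, limma recovered 181 of 200 among 199 calls over 13734 genes (6 libraries by column name) and 180 among 192 calls over 13751 genes (4 libraries). Of these calls, 18 and 12 were false. The simulated libraries were independent with 1 small spread (dispersion 0.01), unlike the close and distant pairs of the real ones. The 3-fold change was also larger than that of any tested MMP or TIMP, so these recoveries do not carry over to the real data. Tables and plots were made in Python 3.11.15 (numpy 2.4.6; pandas 2.3.3; matplotlib 3.10.9).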

Additional observations from a re-analysis of the deposited data

How the results depend on the processing

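By column name, 1089 genes passed the threshold (353 higher and 736 lower). The count was 512 without the filter on low values, 679 after rescaling to the same sum and 253 to 1354 when 1 library was left out. It was 264 without NCa, 335 without NCb, 270 without siPrp19b and 253 without siPrp19c, the libraries of the close pairs. Without NCc it was 1354, and without siPrp19a 1033. The higher share of the 1089 genes was 32.4%, against 46.1% under quantile normalization and 55.1% with voom (1367 genes, 753 higher and 614 lower). In the 4 libraries, 2 genes passed, 0 without the filter, 0 with the replicate block, 264 with voom and 0 to 70 when 1 library was left out (70 without siPrp19c), where the lone library of a group is assumed to vary like the others. As recorded, the count was 0 throughout.

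Deviations from the group means of same-numbered libraries correlated at 0.13, -0.05 and 0.20 by column name, and those of differently numbered libraries at -0.20 to 0.13. As recorded, the values were 0.39, -0.17 and 0.32 against -0.46 to 0.19. Deviations within a group cancel out, which constrains these values, so they cannot decide whether replicate numbers pair the libraries. With the replicate block, 928 genes passed by column name and 0 as recorded.

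By column name, 135 values of the tested MMP and TIMP genes were recomputed, of which 100 kept their direction and side of the threshold, 29 were weaker, 4 stronger and 2 reversed. All 29 weaker values were lost calls of the 5 genes that passed at the outset. For *MMP16*, *MMP17*, *TIMP1* and *TIMP2*, keeping the side meant only staying without a call, so the 100 overstate how stable the calls were. In the 4 libraries and as recorded none of the tested MMP and TIMP genes passed at the outset, so keeping the side of the threshold says little there. *MMP9* by column name kept its call in every alternative that held 5 or 6 libraries grouped by column name. Signs turned for *MMP17* (-0.0572) and *TIMP1* (-0.0325) on going from column names to recorded labels. As recorded, quantile normalization turned *TIMP1* (0.0796) and *TIMP2* (0.0853), and leaving out 1 library gave -0.207 to 0.111 for *MMP17*, -0.157 to 0.0753 for *TIMP1* and -0.169 to 0.0369 for *TIMP2*. In the 4 libraries, *TIMP1* ran from -0.0570 (without NCa) to 0.325. For these changes, the cause was not tested. *MMP24*, with 28 to 68 reads per library, was left out by the filter, and without the filter its log2 fold change was 0.20 (adjusted p = 0.551, limma).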
